A study of Homo sapiens with 6 samples.

Results

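The loci described here are 9 stretches of chromatin, each around a gene that sets whether a blood cell survives or dies by apoptosis. They were chosen by position, as all listed peaks that touch fixed windows of the genome build hg19 named for BCL2, BCL2L1, MCL1, BCL2A1, BCL2L11, PMAIP1, BMF, BBC3 and BIRC3. The windows span 1220 kb in total. They hold 434 of the 145457 peaks in all lists, made up of 32 RUNX1 sites after AI-10-49, 2 RUNX1 sites in DMSO, 209 H3K27ac regions after AI-10-49 and 191 H3K27ac regions in DMSO. The windows were drawn with results of these data known, so the values below describe them and no test is attached.

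Chromatin came from ME-1, an established human leukemia cell line with the chromosome 16 inversion inv(16). This inversion makes the fusion protein CBFβ-SMMHC, which binds the blood transcription factor RUNX1, and AI-10-49 is a small molecule that blocks this binding. The groups were cells treated for 6 h with AI-10-49 at 1 µM and cells treated with the solvent DMSO, and both carry the fusion gene. Antibodies were against RUNX1 or against H3K27ac, a histone mark of active promoters and enhancers, and each antibody and condition had 1 library with a peak list (the 2 input libraries had none). Differences between AI-10-49 and DMSO therefore have no replicate check, and p-values are left out.

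Proteins of the BCL2 family meet at the outer mitochondrial membrane. BCL2, BCL-XL (from BCL2L1), MCL1 and BFL1 (from BCL2A1) keep the pore formers BAX and BAK in check, while the BH3-only proteins BIM (from BCL2L11), NOXA (from PMAIP1), BMF and PUMA (from BBC3) bind the protectors and release that check. BIRC3 encodes cIAP2, a ubiquitin ligase of the inhibitor of apoptosis family that acts in signalling from TNF receptors to NF-κB. Leukemia cells often depend on BCL2, BCL-XL or MCL1.

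RUNX proteins recognise DNA with the core TGTGGT. Promoter sequences of RefSeq (build GRCh38.p14, 250 bases before to 50 after a start) were matched for 8 of the 9 genes, as 10 promoters. The core, searched as TGTGGT and as ACCACA for the other strand, was present in 3 of these 10 promoters and in 13.1% of 35116 promoters of the same length genome-wide. The stretches with a match are shown because they are the only RUNX core letters in these promoter sequences, with the core in capitals. They belong to another build than the peaks, so their positions cannot be compared with those of the peaks. A match describes letters and not a bound site.
BIRC3, 250 bases before the start, GRCh38.p14 chr11:102317234-102317483, plus strand: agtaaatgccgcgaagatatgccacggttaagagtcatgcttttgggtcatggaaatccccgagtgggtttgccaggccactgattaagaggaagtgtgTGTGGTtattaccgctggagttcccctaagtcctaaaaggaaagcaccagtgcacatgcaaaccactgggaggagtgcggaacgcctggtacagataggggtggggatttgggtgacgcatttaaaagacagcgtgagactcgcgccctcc
BCL2L1, 250 bases before the start, GRCh38.p14 chr20:31723964-31724213, minus strand: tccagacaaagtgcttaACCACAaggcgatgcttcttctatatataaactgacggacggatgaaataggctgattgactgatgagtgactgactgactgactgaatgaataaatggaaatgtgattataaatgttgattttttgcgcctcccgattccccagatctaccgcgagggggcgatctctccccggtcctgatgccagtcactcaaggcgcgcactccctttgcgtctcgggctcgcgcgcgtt
BCL2, 30 bases around the match after the start, GRCh38.p14 chr18:63319740-63319769, minus strand: acccctcgccgcACCACAcacagcgcgggc
In BIRC3 the core begins 151 bases before the start, in the direction of transcription, and in BCL2L1 it begins 233 bases before the start on the opposite strand.

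Peak heights are given as fragments over the summit per M (mega) sequenced reads, recovered from the authors' fold enrichment and p-values. Their intervals are 95% Poisson intervals and cover counting error only. The recovered depth was 31.5 M reads for RUNX1 after AI-10-49 and 33.8 M in DMSO, and 37.0 M for H3K27ac after AI-10-49 and 35.7 M in DMSO. Fragment length, read from each list's shortest peak, was 1.13 times as long after AI-10-49 as in DMSO for RUNX1 and 1.09 times for H3K27ac, and heights are not adjusted for it. No hg19 gene annotation was at hand, so a peak is placed in a window and not in a promoter, exon or intron, and it may belong to a neighbour of the named gene. By the RefSeq table of GRCh38.p14 the nearest protein-coding neighbours are, for example, BIRC2 beside BIRC3, ENSA and ADAMTSL4 beside MCL1, and TPX2 beside BCL2L1. Others are SAE1 and CCDC9 beside BBC3, KDSR beside BCL2, and MTHFS and ST20-MTHFS beside BCL2A1. The other genes of the pathway (BAX, BAK1, BID, BAD, XIAP and others) could not be placed for the same reason and are not analysed here.

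The first comparison asks how RUNX1 occupancy at these loci differed after AI-10-49. RUNX1 was listed at 32 sites in 8 of the 9 windows after AI-10-49, and at 2 sites, both in the BBC3 window, in DMSO. Genome-wide the lists held 10319 sites after AI-10-49 and 1701 in DMSO, so more sites after AI-10-49 was not particular to these windows. Of the 32 sites, 30 (93.8%, exact Clopper-Pearson 95% interval 79.2 to 99.2) overlapped no DMSO site. Genome-wide 85.1% of AI-10-49 sites did not, so most sites of the whole list were also absent from DMSO. This and the later intervals for shares treat peaks as independent, although many lie close together. They are no test against the genome-wide shares. Both DMSO sites overlapped an AI-10-49 site, as 91.2% of DMSO sites did genome-wide. Outside the BBC3 window the 24 sites lay 160.0 to 1033 kb from the nearest DMSO site.

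In height the sites were ordinary as a group, with a few tall ones. Their median was 1.19 fragments per M reads (range 0.539 to 4.31), against 1.05 over all AI-10-49 sites, and 19 of the 32 lay above that genome-wide median. By the authors' measures the direction was the other way. The median fold enrichment was 5.56 in the windows against 6.79 over all AI-10-49 sites, and the median −log10 q was 10.8 against 13.3. The weakest site of the DMSO list held 0.326 fragments per M reads. The height needed for a call also depends on the local background, so whether the 32 were within reach of the DMSO library was not tested. Of the 32, 5 were at or above percentile 90 of the AI-10-49 list by fragment number, and these lay in the BIRC3, MCL1, BCL2 and BCL2L1 windows.

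**Figure D1:**
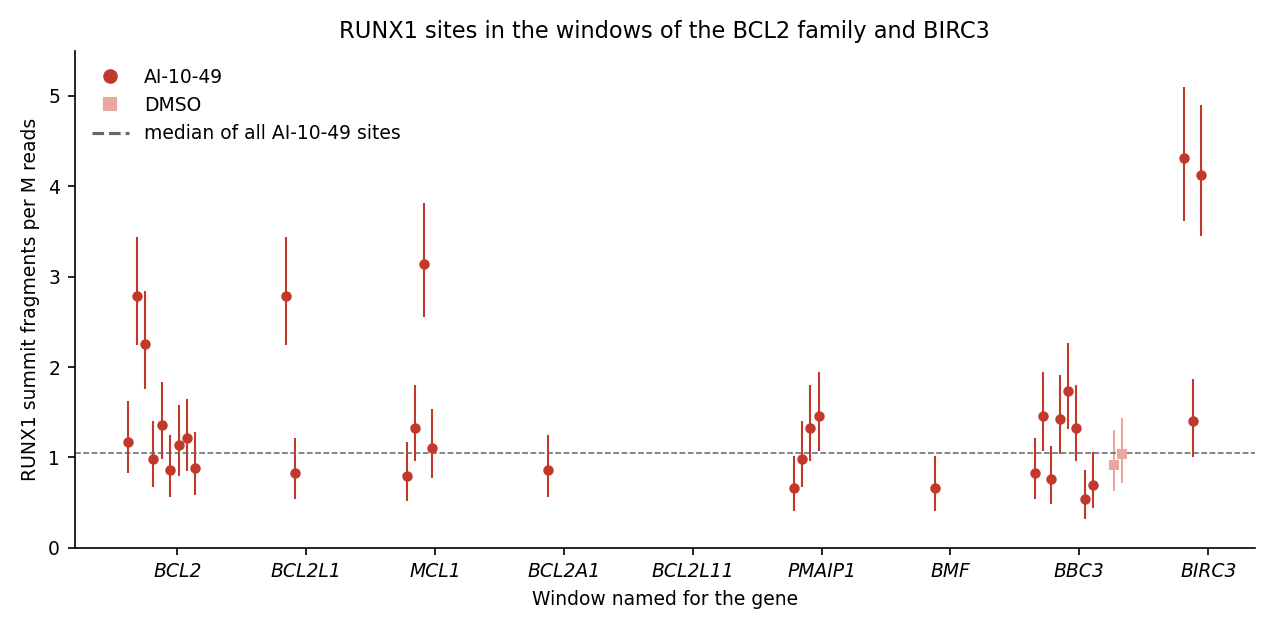
RUNX1 summit fragments per M reads (vertical axis, linear) for each listed site, by window and, within a window, in genome order. Circles are AI-10-49 sites, squares are DMSO sites, bars are 95% Poisson intervals, and the dashed line is the median of all AI-10-49 sites (1.05). The BIRC3 window has the 2 highest sites, BCL2L11 has none, and squares appear only at BBC3.

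The BIRC3 window (chr11:102140000-102260000; hg19, as all positions from here on) had the tallest sites. The site chr11:102187842-102188454 held 136 fragments, 4.31 per M reads (3.62 to 5.1), with a fold enrichment of 24.0 in the authors' list. It was at percentile 98.0 of the AI-10-49 list by fragment number and 792 kb from the nearest DMSO site. A second tall site, chr11:102217364-102218271, held 130 fragments or 4.12 per M reads (3.45 to 4.9). The intervals of these tall sites overlap. Between them, a weaker site at chr11:102212693-102212989 held 44 fragments or 1.4 per M reads (1.01 to 1.87), and it was one of the few sites outside acetylated chromatin, 3.49 kb from an H3K27ac region after AI-10-49 and 3.61 kb from one in DMSO.

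The windows of the protectors BCL2, BCL2L1, MCL1 and BCL2A1 together had 16 sites after AI-10-49 and 0 in DMSO. The BCL2 window (chr18:60740000-61040000) had 9 of them, in 5 groups. Its tallest group lay in a wide acetylated region near the low-coordinate end, with chr18:60765722-60766095 at 88 fragments (2.79 per M reads, 2.24 to 3.44), chr18:60767235-60767691 at 71 fragments (2.25, 1.76 to 2.84) and chr18:60765299-60765502 at 37 fragments (1.17, 0.827 to 1.62). Neighbouring summits among these 3 were 0.513 and 1.57 kb apart.

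The other sites of the BCL2 window lay on both sides of the genome-wide median of 1.05, from 0.857 to 1.36 fragments per M reads. A pair 0.347 kb apart, chr18:60986982-60987170 and chr18:60987302-60987524, held 27 and 36 fragments (0.857 and 1.14 per M reads). Another pair 0.375 kb apart, chr18:61034384-61034642 and chr18:61034750-61035033, held 38 and 28 fragments (1.21 and 0.888 per M reads). Lone sites at chr18:60903672-60903967 and chr18:60805380-60805680 held 43 and 31 fragments (1.36 and 0.984 per M reads). All 9 summits of the BCL2 window lay inside an H3K27ac region of both conditions.

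The BCL2L1 window (chr20:30220000-30360000), named for the gene of BCL-XL, had a tall and a weak site side by side. The tall site, chr20:30262713-30263562, held 88 fragments (2.79 per M reads, 2.24 to 3.44; fold 17.1). Its neighbour chr20:30263686-30263957 held 26 fragments (0.825, 0.539 to 1.21), and the summits were 0.487 kb apart. Both lay 160.0 kb from the nearest DMSO site.

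In the MCL1 window (chr1:150500000-150600000) chr1:150583956-150584485 stood out with 99 fragments (3.14 per M reads, 2.55 to 3.82; percentile 94.7), and a second site 2.02 kb away, chr1:150586058-150586286, held 35 (1.11, 0.773 to 1.54). Both shared 1 wide acetylated region. The sites chr1:150551913-150552358 and chr1:150524756-150525130 held 42 and 25 fragments (1.33 and 0.793 per M reads), each in an acetylated region of its own. The BCL2A1 window (chr15:80210000-80310000) had 1 site below the genome-wide median, chr15:80216128-80216307, with 27 fragments (0.857 per M reads, 0.565 to 1.25, and a fold of 3.52).

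The windows of the BH3-only genes had 13 sites after AI-10-49, of which 8 were in the BBC3 window, and 2 in DMSO. The BBC3 window (chr19:47690000-47780000) is named for the gene of PUMA, a target of p53. This window had the densest RUNX1 sites of the 9, with 8.89 per 100 kb against 2.62 over all windows. It was also the only window in which RUNX1 was already listed in DMSO. At chr19:47730318-47730659 the summit held 1.46 fragments per M reads (1.07 to 1.95) after AI-10-49 and 0.918 (0.624 to 1.3) in DMSO, a ratio of 1.59. At chr19:47759701-47760358 it held 1.33 (0.96 to 1.8) after AI-10-49 and 1.04 (0.722 to 1.44) in DMSO, a ratio of 1.29. The counting intervals of AI-10-49 and DMSO overlap at both sites. Divided by the ratio of fragment lengths, the median of these 2 ratios was 1.27, against 1.44 undivided.

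These ratios were low for sites in both lists, whose genome-wide median was 2.1, and they stood at percentiles 28.6 and 16.2 of such sites. The ratios of the authors' fold enrichments were larger, at 2.34 and 1.67. Fold enrichment also depends on the local background and on the scaling of ChIP to input, and their parts were not separated. Genome-wide 76.0% of sites in both lists had a ratio of fragments of at least 1.5, and here 1 of the 2 had.

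The other 6 BBC3 sites were listed after AI-10-49 only. A cluster around the first shared site held chr19:47731094-47731601 with 45 fragments (1.43 per M reads), chr19:47729463-47729650 with 26 (0.825) and chr19:47730736-47730907 with 24 (0.761), at 0.147 to 0.751 kb from the DMSO site. The tallest of the window, chr19:47747382-47747654, held 55 fragments (1.74, 1.31 to 2.27), was 12.1 kb from a DMSO site and touched an acetylated region of 1.11 H3K27ac fragments per M reads after AI-10-49 and 1.09 in DMSO without its summit lying inside. Near the window's edge, chr19:47777603-47777872 and chr19:47778092-47778330 held 17 and 22 fragments (0.539 and 0.698 per M reads), and the first of these was the weakest of all 32.

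Of the remaining BH3-only windows, PMAIP1 matched MCL1 in density with 4.0 sites per 100 kb, while BMF and BCL2L11 had 1 site or none. The PMAIP1 window (chr18:57520000-57620000), named for the gene of NOXA, had 4 sites in a pair of groups 36.1 kb apart. The taller group held chr18:57588655-57588988 with 46 fragments (1.46 per M reads, 1.07 to 1.95) and chr18:57585661-57585968 with 42 (1.33, 0.96 to 1.8), both over a high background and with folds of 4.12 and 3.43. The other held chr18:57549586-57549814 and chr18:57544683-57544852 with 31 and 21 fragments (0.984 and 0.666 per M reads). The BMF window (chr15:40330000-40450000) had a single site, chr15:40391045-40391264, with 21 fragments (0.666, 0.412 to 1.02). The BCL2L11 window (chr2:111830000-111980000), named for the gene of BIM, had no RUNX1 site in either list. The nearest AI-10-49 sites lay 394 and 411 kb outside that window.

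The windows' borders did not cut through a group of sites. Of the 32 sites, 5 lay within 10 kb of a border on the inside, and no border had an AI-10-49 site within 10 kb on the outside. The closest outside site was 11.6 kb below the MCL1 window with 0.73 fragments per M reads, and a tall one lay 23.2 kb above the BBC3 window with 3.59.

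**Figure D2:**
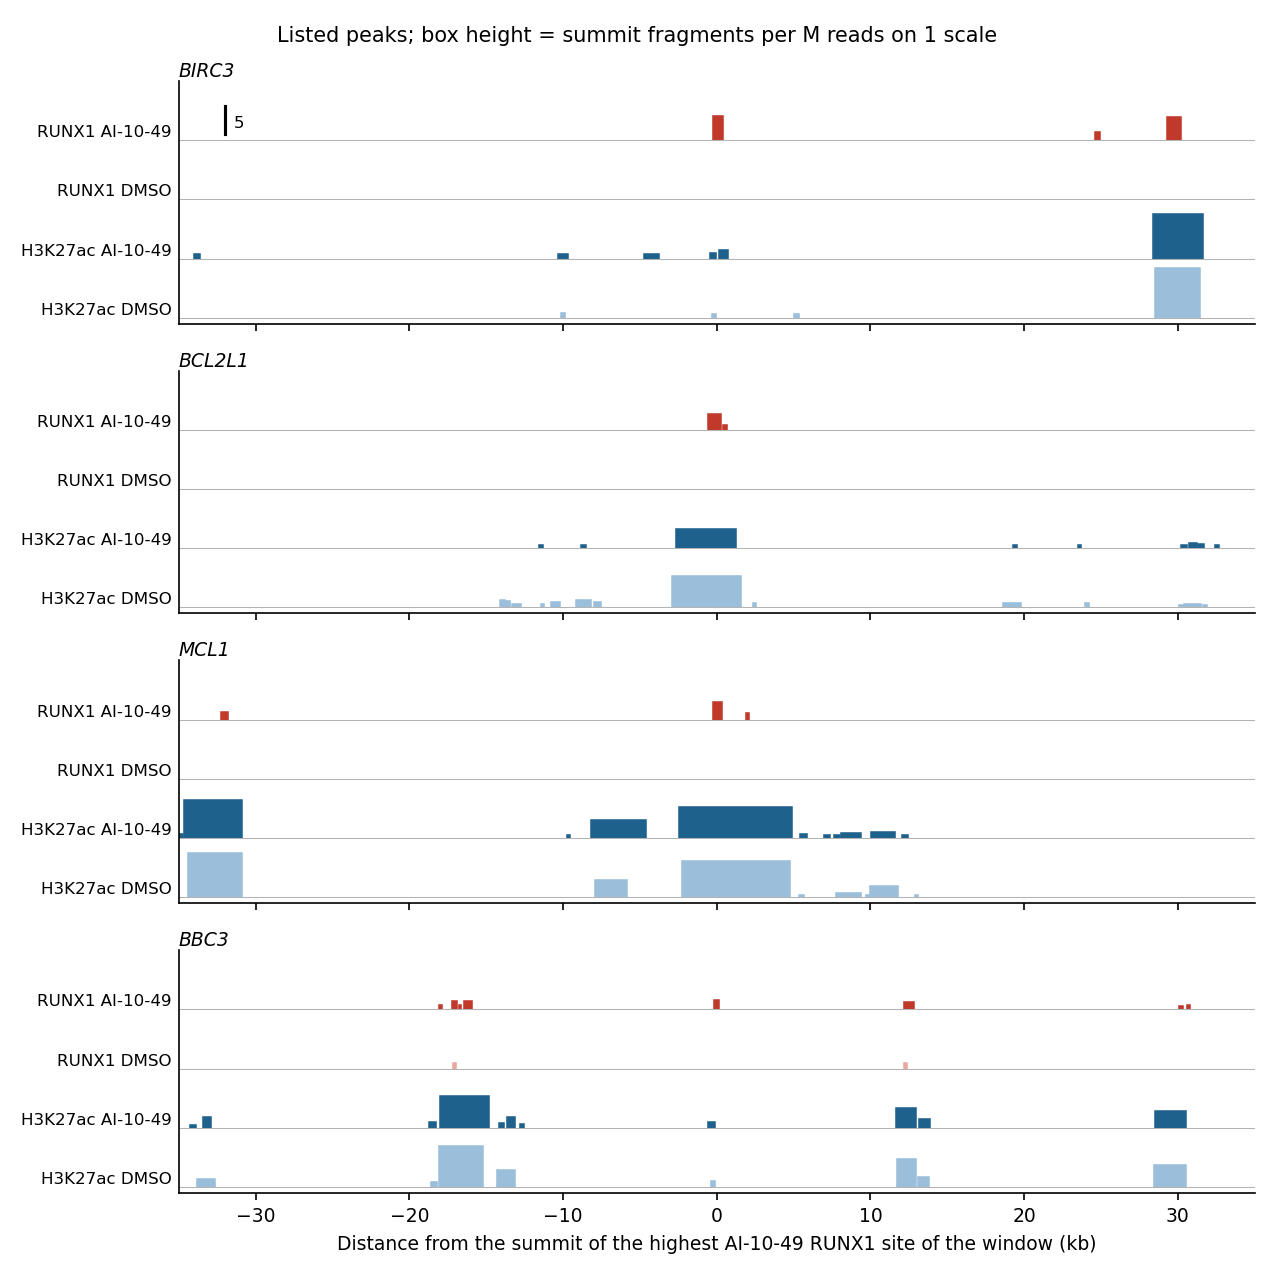
Listed peaks within 35 kb of the highest AI-10-49 RUNX1 summit in the BIRC3, BCL2L1, MCL1 and BBC3 windows (horizontal axis, distance in kb). Each box is a listed peak drawn to its width, its height is the summit fragments per M reads on 1 scale for all rows, and the bar at the upper left stands for 5. The BIRC3 summit falls between narrow H3K27ac regions, those of BCL2L1 and MCL1 fall in wide regions of both conditions, and at BBC3 both DMSO sites have an AI-10-49 counterpart.

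The second comparison places these RUNX1 sites in acetylated chromatin. Of the 32 sites after AI-10-49, 30 (93.8%) overlapped an H3K27ac region of AI-10-49, and 30 (93.8%) one of DMSO. Genome-wide the shares were 86.1% for AI-10-49 regions and 89.8% for DMSO regions (the interval for the windows was 79.2 to 99.2 for both). Contact with acetylated chromatin was thus common among sites here and genome-wide. Seen from the mark, 24 of the 209 AI-10-49 H3K27ac regions (11.5%) held a RUNX1 site, against 13.7% genome-wide. The 2 exceptions in either list were the lowest of the 3 BIRC3 sites and a BBC3 site 0.05 kb from an AI-10-49 region and 0.06 kb from a DMSO region.

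Summits were less often inside a region than sites were in contact with one. In AI-10-49 regions 25 of the 32 summits (78.1%, 60.0 to 90.7) lay inside, and in DMSO regions 27 (84.4%, 67.2 to 94.7), against 68.4% and 76.2% genome-wide. The tallest site, at BIRC3, was among the 5 whose summit lay in a gap or beside an AI-10-49 region that they touched. Its summit fell between chr11:102187640-102188055 (0.973 H3K27ac fragments per M reads, 0.682 to 1.35) and chr11:102188191-102188790 (1.57, 1.19 to 2.03). The first of these overlapped a DMSO region of 0.728 (0.476 to 1.07), a ratio of 1.34 with overlapping intervals, and the second was listed after AI-10-49 only, 0.179 kb from that DMSO region. At BCL2A1 the summit fell between chr15:80215181-80216164 and chr15:80216213-80217044 after AI-10-49, where DMSO had 1 region, chr15:80215126-80217105.

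The third comparison asks how acetylation itself differed. The windows held 209 H3K27ac regions after AI-10-49 and 191 in DMSO, which covered 210.0 kb (17.2% of the windows) and 199 kb (16.3%). The ratio of covered length was 1.06, against 0.908 genome-wide, and the median width was 494 bp after AI-10-49 and 480 bp in DMSO. Of the AI-10-49 regions 65 (31.1%, 24.9 to 37.9) overlapped no DMSO region, where 21.0% did genome-wide. Of the DMSO regions 53 (27.7%, 21.5 to 34.7) overlapped no AI-10-49 region, where 29.0% did genome-wide. The BCL2 window alone supplied 41 of the 65 and 31 of the 53.

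Windows differed in extent of the mark. BCL2 was the most broadly acetylated, with 110 regions over 33.5% of the window after AI-10-49 and 97 regions over 30.5% in DMSO. MCL1 followed with 29.4% after AI-10-49 and 23.9% in DMSO, then BMF with 20.6% after AI-10-49 and 20.3% in DMSO, and PMAIP1 with 14.6% after AI-10-49 and 15.1% in DMSO. At the other end, BCL2L11 had 2 regions after AI-10-49 and 3 in DMSO, covering 1.16% and 1.68% of the window. BIRC3 had 6 and 5 regions, covering 5.26% after AI-10-49 and 3.42% in DMSO.

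As a ratio, covered length was lowest at BCL2L1 and highest at BIRC3. BCL2L1 had 13 regions over 10.9 kb after AI-10-49 and 21 regions over 17.0 kb in DMSO, a ratio of 0.64. Of its 21 DMSO regions 10 overlapped no AI-10-49 region, where 29.0% of DMSO regions did genome-wide. The strongest of these by the authors' q-value, chr20:30249188-30249529, held 49 fragments (1.37 per M reads, 1.02 to 1.82) in DMSO and was 2.23 kb from the nearest AI-10-49 region. The BIRC3 ratio, 1.54, rests on 6.31 kb after AI-10-49 and 4.1 kb in DMSO. Summed lengths follow how much was called in each list, and the strongest region in the AI-10-49 list alone at BIRC3 was the one beside its tallest RUNX1 site.

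By fragments per M reads the highest H3K27ac summit was lower after AI-10-49 in each of the 9 windows, but by the authors' fold enrichment it was higher in 6 of them. Lower tall summits were also the rule genome-wide. Of 5014 regions in both lists with at least 5 fragments per M reads in DMSO, 2.95% were higher by fragments after AI-10-49. The fold at the highest summit was, for example, 35.1 after AI-10-49 and 28.2 in DMSO at BMF, and 19.8 after AI-10-49 and 14.4 in DMSO at PMAIP1. At BCL2, BCL2L1, MCL1 and BCL2A1 the fold was likewise higher after AI-10-49. The fold was lower after AI-10-49 at BCL2L11 (11.3, against 14.7 in DMSO), BBC3 (24.5, against 27.7) and BIRC3 (14.6, against 18.0), where both measures had the same direction. In fragments, chr18:60763435-60770504 in the BCL2 window reached 7.54 fragments per M reads (6.68 to 8.48) after AI-10-49, and 10.1 (9.05 to 11.2) in DMSO. At BCL2L1, chr20:30310155-30311855 reached 6.84 (6.02 to 7.74) after AI-10-49 and 8.8 (7.85 to 9.83) in DMSO, and it held no RUNX1 site. At BCL2L11, chr2:111878574-111880102 reached 1.49 (1.12 to 1.94) after AI-10-49 and 2.97 (2.43 to 3.59) in DMSO. The counting intervals did not overlap there, nor at BCL2A1 (3.73 after AI-10-49, 5.8 in DMSO) and PMAIP1 (4.0 after AI-10-49, 5.52 in DMSO).

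In the other 4 windows the counting intervals of the highest summits overlapped. BIRC3 reached 7.92 (7.04 to 8.88) after AI-10-49 and 8.99 in DMSO at chr11:102216479-102219680, the region that holds its second tall RUNX1 site. MCL1 reached 6.81 after AI-10-49 and 7.85 in DMSO, BMF 5.43 after AI-10-49 and 6.7 in DMSO, and BBC3 5.7 after AI-10-49 and 7.31 in DMSO.

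**Figure D3:**
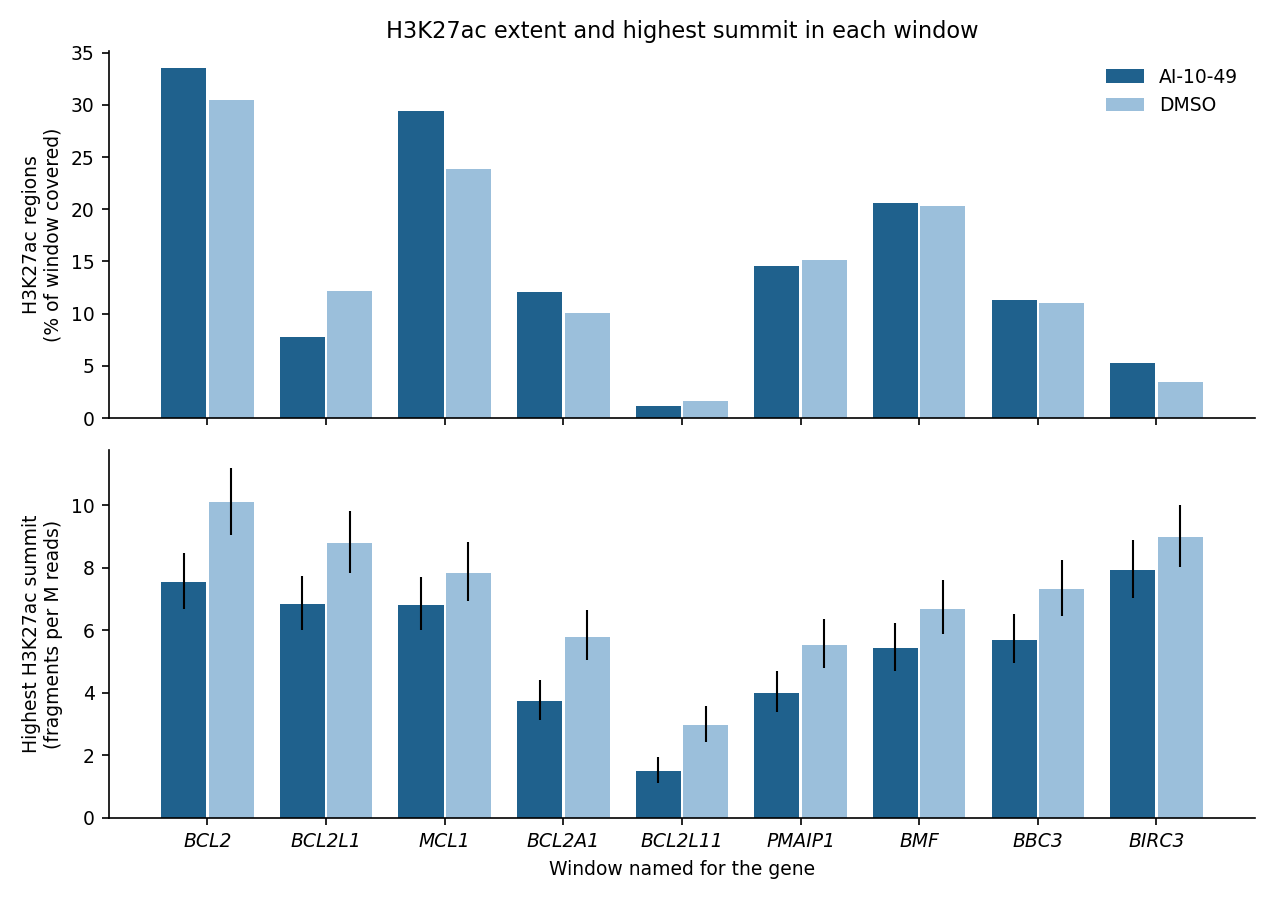
Share of each window covered by H3K27ac regions (upper panel, percent) and the highest H3K27ac summit in each window (lower panel, fragments per M reads, bars of 95% Poisson error), with AI-10-49 left of DMSO. Coverage is highest at BCL2 and lowest at BCL2L11, and the highest summit in fragments is lower after AI-10-49 in all 9 windows, although its fold enrichment is higher in 6. Genome-wide 2.95% of regions in both lists with at least 5 fragments per M reads in DMSO are higher by fragments after AI-10-49.

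Over all heights, 138 DMSO regions of the windows were in both lists. Their median ratio of summit fragments was 0.945 (quartiles 0.748 and 1.3), against 0.838 genome-wide, and 58 of them (42.0%) had a ratio above 1, against 35.6%. By the authors' fold enrichments the median ratio was on the other side of 1, at 1.11 against 0.933 genome-wide, and 76 (55.1%) were above 1, against 44.4%. Divided by the ratio of fragment lengths, the median by fragments was 0.864. A ratio of at most 1/1.5 was found for 20 (14.5%, 9.08 to 21.5), where 29.1% had one genome-wide, and a ratio of at least 1.5 for 17 (12.3%), where 12.8% had one. The BCL2 window supplied 66 of the 138 and had a median of 1.03; without it the median was 0.866. By window the lowest median was 0.535 at BCL2L11, over 2 regions, followed by 0.733 at BCL2L1 over 11.

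The ratio by fragments differed with where the paired AI-10-49 summit lay. That summit lay inside the DMSO region for 104 of the 138 and outside for 34, and the DMSO regions had a median of 1.34 and 0.644 fragments per M reads in these groups. Over the 104 the median ratio was 0.861 (quartiles 0.708 and 1.04), against 0.945 over all 138. Each DMSO region was paired with the overlapping AI-10-49 region of most fragments. Where that summit lay outside, the ratio compared heights at different positions, and the pairing itself favoured high ratios. The ratios of the 34 are therefore no measure of change, though they are part of the median over all 138. An AI-10-49 region could be paired with more than 1 DMSO region. At BCL2, for example, chr18:60902849-60906851 was paired with DMSO regions at ratios of 1.04 and 7.79. A ratio of at least 1.5 was found in 4 of the 104 (4.86% genome-wide) and in 13 of the 34 (51.7%). Of the 104, 20 had counting intervals apart and lower after AI-10-49 (19.2%, against 28.4% genome-wide; 14 of the 20 were also lower by the authors' fold) and 0 had intervals apart and higher (0.800% genome-wide). Of the 34, 6 had intervals apart and higher (33.5% genome-wide) and 0 apart and lower (0.742%).

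The ratios of regions with an AI-10-49 RUNX1 site were lower in their median than those of the rest, here and genome-wide. The median was 0.811 over 21 such regions (range 0.542 to 1.34) and 0.989 over the 117 without a site, and genome-wide the medians were 0.705 and 0.889. The regions with a site were also tall, with a median of 5.69 fragments per M reads in DMSO against 0.981 over all 138. Regions of at least 5 fragments per M reads in DMSO, with or without a site, had low ratios too. Their median was 0.777 over 17 regions of the windows and 0.687 genome-wide. These regions were picked by their height in DMSO, the denominator of the ratio, and such a choice by itself favours low ratios. The part of height in the difference between regions with and without a site was not tested. Counting intervals were apart and lower after AI-10-49 in 8 of the 21 (46.1% genome-wide). A ratio of at most 1/1.5 was found in 5 of the 21, where 42.5% had one genome-wide, and in 15 of the 117, where 26.1% had one.

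The 5 lay at BCL2, BCL2L1, BCL2A1 and PMAIP1. In the BCL2 window the DMSO region chr18:60802408-60808000 had 2.6 fragments per M reads (2.1 to 3.17) after AI-10-49 and 4.79 (4.1 to 5.57) in DMSO, a ratio of 0.542, and was split into 5 AI-10-49 regions. Also there, chr18:61033163-61035524 had 3.84 (3.23 to 4.52) after AI-10-49 and 6.7 (5.87 to 7.6) in DMSO, a ratio of 0.573. Around the tall BCL2L1 site, chr20:30260414-30264884 had 3.38 (2.81 to 4.03) after AI-10-49 and 5.69 (4.93 to 6.53) in DMSO, a ratio of 0.594.

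At PMAIP1, chr18:57584964-57587428 had 2.54 (2.05 to 3.11) after AI-10-49 and 4.26 (3.61 to 4.99) in DMSO, a ratio of 0.597. The region of the BCL2A1 site had a ratio of 0.643. All 5 pairs had counting intervals apart. By the authors' fold enrichments 4 of the 5 were lower after AI-10-49 as well (ratios of 0.619 to 0.897), and the BCL2A1 region was higher, at 1.12.

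Among the other 16 regions with a RUNX1 site, 3 also had intervals apart and lower after AI-10-49, which were chr18:60763254-60769971 and chr18:60980714-60990452 at BCL2, with ratios of 0.75 and 0.78, and a region at BBC3. By the authors' fold enrichments these BCL2 regions were higher after AI-10-49 (ratios of 1.39 and 1.13), and the BBC3 region was lower (0.703). The wide MCL1 region chr1:150581924-150588951, which holds the tall site, had 5.52 (4.78 to 6.33) after AI-10-49 and 6.39 (5.59 to 7.27) in DMSO. In the BCL2 window chr18:60903149-60906056 had 6.11 (5.34 to 6.96) after AI-10-49 and 5.88 (5.12 to 6.74) in DMSO, a ratio of 1.04. At BBC3 the cluster's region chr19:47729456-47732317 had 5.7 (4.96 to 6.53) after AI-10-49 and 7.31 (6.45 to 8.26) in DMSO, and the region of the second shared site, chr19:47759246-47760521, had 3.57 (2.99 to 4.23) after AI-10-49 and 5.02 (4.31 to 5.81) in DMSO, intervals apart, at a ratio of 0.712. The RUNX1 sites in both lists at BBC3 were in regions whose H3K27ac ratio was 0.78 and 0.712. By the authors' fold enrichments the median over the 21 regions was 0.997, with 10 (47.6%) above 1, and the wide MCL1 region had a ratio of 1.48. Genome-wide the median by fold for regions with a site was 0.854, with 37.0% above 1. For regions without a site it was 1.11 over the 117 of the windows and 0.953 genome-wide.

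**Figure D4:**
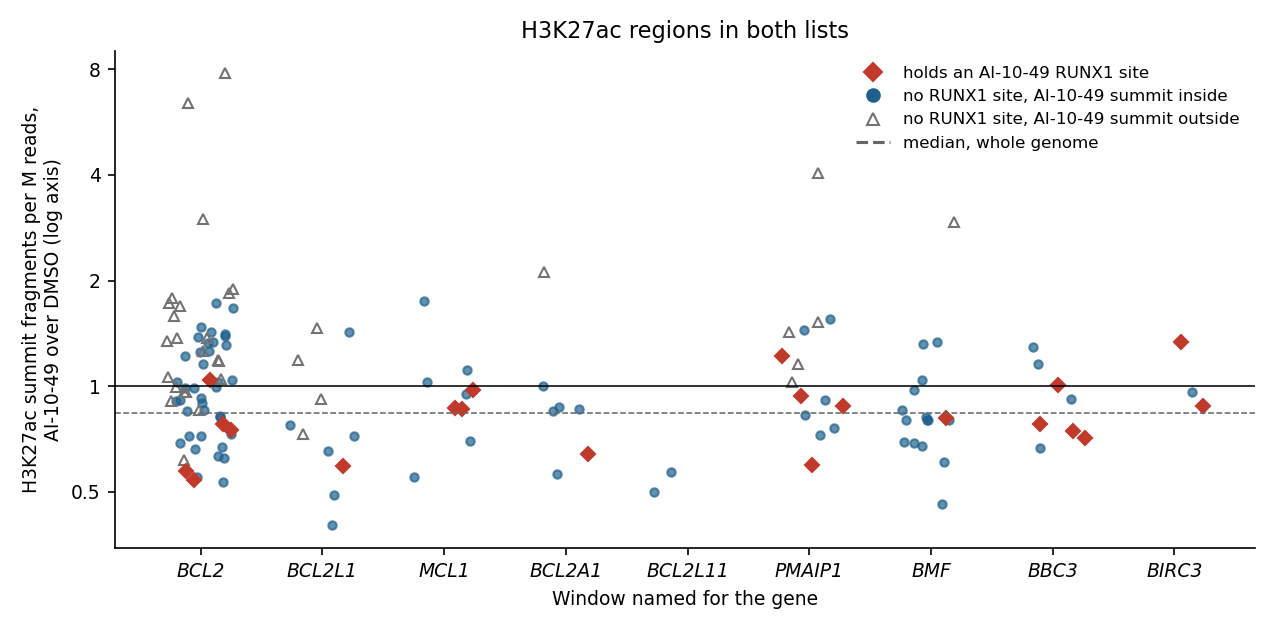
Ratio of H3K27ac summit fragments per M reads, AI-10-49 over DMSO (log axis), for each of the 138 DMSO regions in both lists, by window. Diamonds hold an AI-10-49 RUNX1 site, circles do not, and open triangles do not and were paired with an AI-10-49 summit outside the DMSO region. The dashed line is the genome-wide median (0.838), most diamonds lie below 1 by this measure, and the highest values are triangles.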

How the data were processed

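Deposited were peak lists per library on hg19. According to the submitters' processing notes, the tools were MACS2 2.1.0, Bowtie2 2.1.0, Picard 1.96, SAMtools 1.3 and CASAVA 1.4, with no role stated for any. The deposited ratio per peak is the authors' fold enrichment at the summit, the deposited −log10 p and q values are also the authors', and the deposited score was not used.

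Summit fragments were recovered from the deposited fold and −log10 p, given a factor that scales ChIP to input. At the chosen factor 100.0% of peaks in each list were solved to within 0.003 of −log10 p; at other factors the median share was 1.333% to 2.667%. Tested on simulated data, 99.95% of 1992 peaks (RUNX1, AI-10-49), 100.0% of 1699 (RUNX1, DMSO), 99.949% of 1948 (H3K27ac, AI-10-49) and 100.0% of 1945 (H3K27ac, DMSO) came out exact. Read totals assume a genome of 2700000000 bp and the shortest peak as fragment length.

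Peaks with any overlap of a window were members, and an overlap of 1 bp counted as shared. A DMSO peak was paired with the overlapping AI-10-49 peak of most fragments. Regions were named by rule: every RUNX1 site, and per window and list the H3K27ac region with the highest −log10 q, the widest, those with a RUNX1 site and the strongest of 1 list. The members and lists were chosen with earlier results of these data known. Other thresholds, overlaps and units were tried. Each condition had 1 library, so no test was made. Computation used Python 3.11.15, numpy 2.4.6, pandas 2.3.3, scipy 1.17.1 and matplotlib 3.10.9.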

Additional observations from a re-analysis of the deposited data

How the results depend on the processing

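Across 46 recomputed values, 31 kept close to the reported one, 14 moved and 1 changed sides of 1. With −log10 q of at least 10, the windows held 18 RUNX1 sites after AI-10-49 and 0 in DMSO, and 75 and 81 H3K27ac regions. With 0 DMSO sites left, the share of those RUNX1 sites that overlapped no DMSO site was 100% by construction. Of the AI-10-49 H3K27ac regions, 86.7% overlapped a DMSO region. When 50% of both intervals had to overlap, 40.7% of AI-10-49 and 44.5% of DMSO H3K27ac regions were shared, and within 1 kb 88.5% and 89% were. RUNX1 summits lay inside an AI-10-49 H3K27ac region at 78.1% of sites. Without the BCL2 window, an alternative chosen after seeing the data, there were 99 H3K27ac regions after AI-10-49 and 94 in DMSO, and 75.8% of the AI-10-49 regions were shared. Fewer windows and stricter thresholds lower counts by construction. The median H3K27ac ratio was 1.11 by the authors' fold enrichments, against 0.945 by fragments, so its side of 1 depends on the measure; the cause was not tested. No paired analysis was possible because the lists came from single libraries with no replicate numbers. Small fragment numbers limit weak sites, and the intervals leave out variation between cultures.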
